A study of Rattus norvegicus with 31 samples.

Results

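The regeneration-associated genes Atf3, Jun, Smad1, Hspb1, Tubb2b, Gap43 and Stat3 were followed in tail motor neurons of rats with a transected spinal cord. Members were all probe sets whose only gene symbol in the annotation of the array was one of these 7 names, which gave 8 of the 12913 probe sets tested and 6 of the 9769 genes named. Atf3, Jun, Hspb1 and Tubb2b had 1 probe set each, Smad1 and Stat3 had 2 each, and Gap43, a growth cone protein, had none and is not analysed here.

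The cord of adult male Wistar rats was cut at the second sacral segment and a piece of tissue was removed, so that the segments that move the tail lost their input from above. The motor neurons had been filled with Fluoro-Gold, given into muscle and the abdominal cavity, and were cut by laser out of sections of segments S3 and S4, below the lesion. Their pooled RNA was amplified in 2 rounds and hybridised to 1 Affymetrix rat genome array for each animal, 31 in all. Animals were taken 2 days (Spi-2, n = 6), 7 days (Spi-7, n = 5), 21 days (Spi-21, n = 8) and 60 days (Spi-60, n = 8) post injury. The Control group (n = 4) was uninjured and had no sham operation, so that injury, surgery and the buprenorphine given for pain cannot be told apart. The arrays of the 2 late groups belonged to a previous study of the same laboratory, whereas the others were made later, so that study and late time cannot be told apart either.

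A neuron whose axon is cut switches on a set of transcription factors, among them Atf3, Jun, Smad1 and Stat3, together with proteins of the growth cone and the cytoskeleton, and this programme accompanies axon regrowth in peripheral nerves. Atf3 and Jun are leucine zipper proteins that bind DNA in pairs, Jun is activated by JNK, Smad1 carries signals of bone morphogenetic proteins (BMPs) to the nucleus, and Stat3 carries those of cytokines that bind gp130. In the present model the lesion lay above the sampled neurons, whose own axons leave the cord below it.

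The question was how strongly each of these genes departed from Control at each time, and whether early and late values differed. Values are deposited log2 signals, on which 1 unit is a doubling, and levels of different probe sets are not comparable. Differences are given with the standard error (SE) of a linear model (limma) over all 31 arrays, and a difference was called at a Benjamini-Hochberg adjusted p under 0.05 over all probe sets.

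At 2 days post injury 4 of the 8 probe sets were called, all higher than Control: Atf3, Tubb2b, Hspb1 and 1 of the 2 for Smad1. Of all probe sets, 8.87% were called at this time and 3.9% were called higher. At 7 days Atf3 and Tubb2b were called higher (2 of 8), against 2.59% of all probe sets called and 0.914% called higher. At 21 days Atf3, Tubb2b and 1 probe set of Stat3 were higher (3 of 8), where 16.6% of all probe sets were called and 5.94% were higher. At 60 days Hspb1 and the other probe set of Stat3 were higher (2 of 8), where 17.1% of all were called and 7.2% were higher. No member was called lower than Control at any time, and all 4 comparisons share the 4 Control animals.

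**Figure D1:**
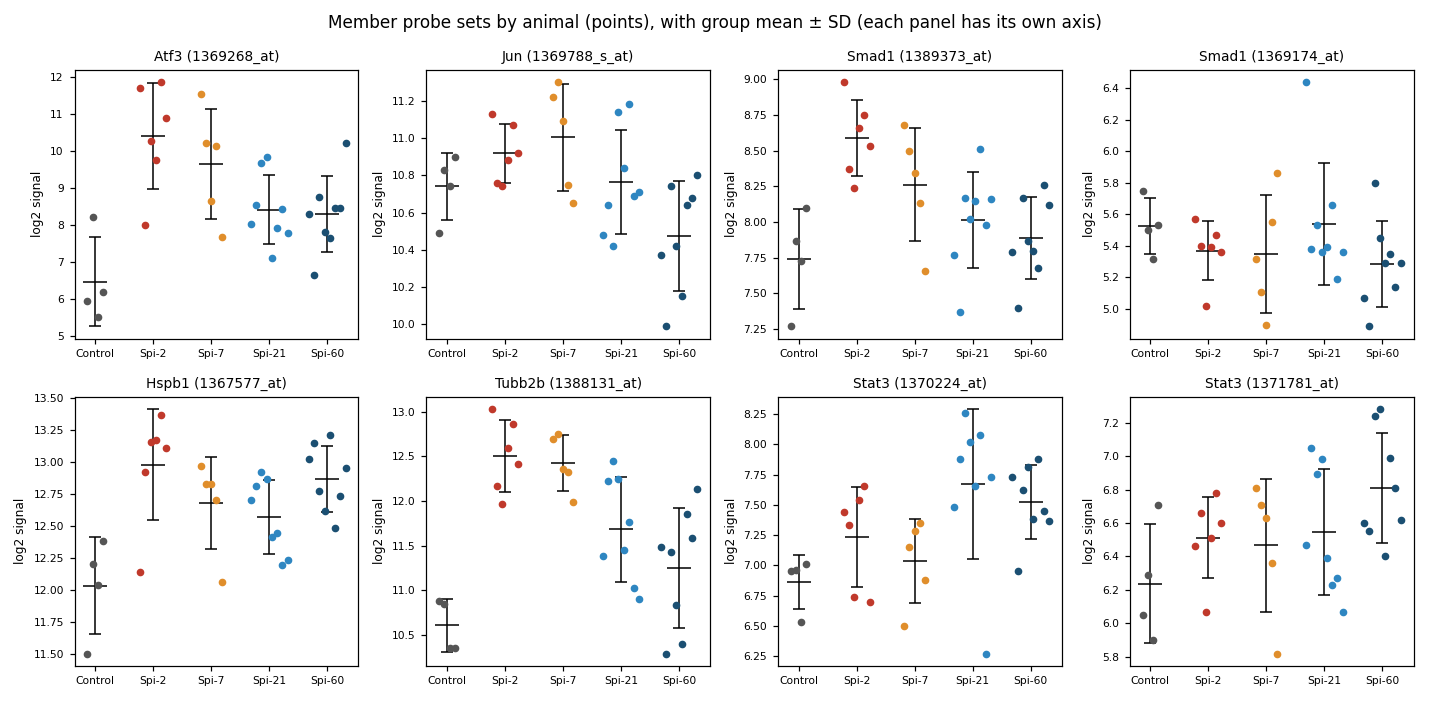
Log2 signal of the 8 member probe sets (vertical axes, 1 for each panel) in every animal (points) of Control, Spi-2, Spi-7, Spi-21 and Spi-60, with group mean and SD (bars). Tubb2b lay between 11.97 and 13.03 in Spi-2 animals, all above the 4 Control animals, and Atf3 was above the highest Control animal in 5 of 6 Spi-2 animals.

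The promoters of the members were read from RefSeq on build GRCr8, as the 250 bases before and the 50 bases after the annotated start of each gene. They were available for 4 of the 7 genes (Smad1, Hspb1, Tubb2b and Stat3). Only the 2 windows that held any of the motifs searched are shown, with the matching bases in capitals. Both genes were called higher at 2 days, but so was Smad1, whose window held none. The share of all promoters with at least 1 of the motifs was not computed. The Tubb2b window lies on the plus strand of chromosome 17 and the Hspb1 window on the minus strand of chromosome 12.
Tubb2b, chr17:30952836-30953135: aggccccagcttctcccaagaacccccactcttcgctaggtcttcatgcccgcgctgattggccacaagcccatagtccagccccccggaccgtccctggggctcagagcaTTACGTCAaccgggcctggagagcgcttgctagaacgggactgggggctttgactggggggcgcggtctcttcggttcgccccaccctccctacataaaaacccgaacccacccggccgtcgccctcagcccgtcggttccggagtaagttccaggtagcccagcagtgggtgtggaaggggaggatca
Hspb1, chr12:26432252-26432551: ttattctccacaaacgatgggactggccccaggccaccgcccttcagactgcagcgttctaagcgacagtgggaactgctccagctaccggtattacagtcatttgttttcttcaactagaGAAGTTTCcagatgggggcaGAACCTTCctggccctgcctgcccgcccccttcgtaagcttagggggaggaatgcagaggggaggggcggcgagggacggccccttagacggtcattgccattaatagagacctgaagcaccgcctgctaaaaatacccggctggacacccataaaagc
The capitals in Tubb2b mark TTACGTCA at position -139 from the start, which on the other strand reads TGACGTAA, a form of the site bound by ATF and CREB proteins. The pattern TGACGTNA was found on either strand in 3.25% of 33469 promoters. The capitals in Hspb1 mark GAAGTTTC at -129 and GAACCTTC at -109, both of the pattern GAANNTTC that is the core of heat shock elements, which 8.59% of all promoters held. The other patterns searched on both strands were TGANTCA (AP-1, in 7.33% of promoters), TGACGTCA (the full CRE, also part of TGACGTNA, in 1.83%), TTCNNGAA (the heat shock core in the other orientation, 8.77%), TTCNNNGAA (Stat proteins, 8.87%) and TATAAA (14.2%). None of these was found in the Smad1 or Stat3 window. The patterns were chosen after the promoters had been seen, and a match is a run of letters, not a measured binding site.

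Atf3, a transcription factor that is nearly silent in intact neurons and rises with stress or injury, showed the largest difference among the members. Its gene lies on chromosome 13 (chr13:105274103-105331653). Its log2 signal was 5.95, 8.23, 5.52 and 6.2 in Control animals. All but the 8.23 lay near the array medians of 5.95 to 6.1, so that the folds given below rest on a dim Control signal. The lowest, median and highest values were 8.00, 10.60 and 11.88 in Spi-2, and the 5 Spi-7 animals had 11.54, 10.22, 8.66, 10.15 and 7.70. In these early groups only 1 Spi-2 animal and 1 Spi-7 animal fell below the highest Control animal, replicate 2 (8.23, against 6.2 in the next). The lowest, median and highest values were 7.11, 8.25 and 9.85 in Spi-21 and 6.67, 8.40 and 10.23 in Spi-60. In 4 of 8 Spi-21 and 5 of 8 Spi-60 animals Atf3 exceeded that Control animal, so that the late groups overlapped with Control.

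The Atf3 difference from Control was 3.95 ± 0.71 at 2 days, a 15.5-fold higher signal (95% interval of the log2 difference 2.50 to 5.4, limma adjusted p = 0.000662). It was 3.18 ± 0.74 at 7 days (9.06-fold, limma adjusted p = 0.0133), 1.95 ± 0.67 at 21 days (3.85-fold, limma adjusted p = 0.0441) and 1.83 ± 0.67 at 60 days (3.55-fold, limma adjusted p = 0.0575). The order of group means was therefore Spi-2, Spi-7, Spi-21, Spi-60 and Control, from high to low. Neighbours in that order were not separable by limma: Spi-7 minus Spi-2 was -0.77 (interval -2.13 to 0.59), Spi-21 minus Spi-7 was -1.23 (-2.51 to 0.04) and Spi-60 minus Spi-21 was -0.12 (-1.24 to 1.00). The call at 2 days held without any single animal. The call at 7 days was lost without Control replicate 1, Control replicate 3 or Spi-7 replicate 1 (limma adjusted p of 0.0565, 0.0744 and 0.056), and that at 21 days without any of Control replicates 1, 3 and 4 or Spi-21 replicates 1, 2, 3, 4 and 7 (limma adjusted p between 0.0501 and 0.153). At 60 days the difference was called without Control replicate 2 (2.41, limma adjusted p = 0.0273) and without Spi-60 replicate 2 (2.06, limma adjusted p = 0.0356).

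Jun, the AP-1 factor that partners with Atf3 and is the main target of JNK, lies on chromosome 5 and changed little. Its probe set has the suffix that marks probes shared between transcripts. The values were 10.49, 10.83, 10.74 and 10.90 in Control animals. The lowest, median and highest values were 10.74, 10.90 and 11.13 in Spi-2, and the Spi-7 animals had 11.22, 11.30, 11.09, 10.75 and 10.65. The early groups reached above Control but overlapped with it, with 3 of 6 Spi-2 and 3 of 5 Spi-7 animals over the highest Control animal. In Spi-21 Jun ranged from 10.42 to 11.18 and in Spi-60 from 9.99 to 10.80, where no animal exceeded the highest Control animal. Differences from Control were 0.18 ± 0.16, 0.26 ± 0.17, 0.02 ± 0.15 and -0.26 ± 0.15 at 2, 7, 21 and 60 days, with limma adjusted p between 0.25 and 0.932. The 95% intervals at 2 and 7 days ended at 0.51 and 0.61, far below the Atf3 difference at those times.

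Smad1, on chromosome 19, was read by 2 probe sets that disagreed. The brighter one (1389373_at) gave 7.27, 7.87, 7.73 and 8.10 in Control animals and, as lowest, median and highest, 8.24, 8.60 and 8.98 in Spi-2 animals. All 6 Spi-2 animals were above all Control animals, as in 4.06% of all probe sets, and the difference was 0.85 ± 0.20, or 1.80-fold (limma adjusted p = 0.00686). In Spi-7 animals the probe set read 8.68, 8.50, 8.34, 8.13 and 7.66, which overlapped with Control. Differences were 0.52 ± 0.21 at 7 days, 0.27 ± 0.19 at 21 days and 0.14 ± 0.19 at 60 days, none of them called (limma adjusted p of 0.198, 0.333 and 0.657). The dimmer probe set (1369174_at) ranged from 4.89 to 6.44 over all groups, below the array medians of 5.95 to 6.1 in all but 1 animal, and differed from Control by between -0.24 and 0.01 (limma adjusted p of 0.388 or more). The 2-day call therefore rests on 1 of 2 probe sets.

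Stat3, on chromosome 10, was also read by 2 probe sets, both of which were called late and neither early, at different times. Probe set 1370224_at gave 6.95, 6.96, 6.53 and 7.01 in Control animals, between 6.70 and 7.66 in Spi-2 animals and between 6.50 and 7.35 in Spi-7 animals. It was higher in 7 of 8 Spi-21 animals than in any Control animal, with a lowest, median and highest value of 6.27, 7.81 and 8.26, and in 7 of 8 Spi-60 animals, with 6.95, 7.53 and 7.88. The difference was 0.81 ± 0.25 at 21 days (1.75-fold, limma adjusted p = 0.0236) and 0.66 ± 0.25 at 60 days (limma adjusted p = 0.0617). Probe set 1371781_at gave 6.05, 6.29, 5.90 and 6.71 in Control animals, and in Spi-60 animals a lowest, median and highest value of 6.4, 6.71 and 7.28, with 4 of 8 animals above all Control animals. Its difference was 0.30 ± 0.20 at 21 days (limma adjusted p = 0.303) and 0.57 ± 0.20 at 60 days (1.49-fold, limma adjusted p = 0.0446). At 2 and 7 days the 2 probe sets differed from Control by between 0.17 and 0.37 (limma adjusted p between 0.425 and 0.831). The 21-day call was lost without Control replicate 2 or 3 (limma adjusted p of 0.0517 and 0.0943). The 60-day call was lost without any of Control replicates 1, 2 and 3 or Spi-60 replicates 3, 4, 6 and 7 (limma adjusted p between 0.0546 and 0.173).

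Hspb1, the small heat shock protein also known as Hsp27 that protects axotomised neurons, was the member called both at 2 and at 60 days. Control animals had 11.50, 12.20, 12.04 and 12.38. The lowest, median and highest values were 12.14, 13.14 and 13.37 in Spi-2, and Spi-7 animals had 12.97, 12.83, 12.83, 12.70 and 12.06. In each of these groups 1 animal lay among the Control animals and all others lay above them. In Spi-21 the values ran from 12.19 over a median of 12.57 to 12.92, with 6 of 8 animals above Control. In Spi-60 they ran from 12.48 over 12.86 to 13.21 and did not overlap with Control, which 5.33% of all probe sets showed in that direction.

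The Hspb1 difference was 0.95 ± 0.21 at 2 days (1.93-fold, limma adjusted p = 0.00382), 0.65 ± 0.22 at 7 days (limma adjusted p = 0.109), 0.54 ± 0.20 at 21 days (limma adjusted p = 0.0572) and 0.83 ± 0.20 at 60 days (1.78-fold, limma adjusted p = 0.00423). Between times, Spi-7 minus Spi-2 was -0.30 (interval -0.70 to 0.10), and Spi-60 minus Spi-21 was 0.30 (-0.03 to 0.62). Spi-7 replicate 5, the lowest of its group, decided the call at 7 days, where the difference without it was 0.80 (limma adjusted p = 0.036). The call at 21 days was made without Control replicate 4 or Spi-21 replicate 7 or 8 (limma adjusted p between 0.0368 and 0.0412).

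Tubb2b, a β-tubulin of growing neurons, separated injured from Control animals more completely than Atf3 did. Its gene lies on chromosome 17 (chr17:30953086-30956133), where the promoter shown above begins it. Control animals had 10.88, 10.85, 10.35 and 10.35. The lowest, median and highest values were 11.97, 12.51 and 13.03 in Spi-2, and Spi-7 animals had 12.70, 12.75, 12.36, 12.32 and 11.99. No early animal came within 1 log2 unit of the highest Control animal, whereas groups did not overlap in this direction for 4.06% of all probe sets at 2 days and 3.78% at 7 days. In Spi-21 the values ran from 10.90 over 11.61 to 12.45, still above all Control animals, which held for 2.35% of all probe sets. In Spi-60 they ran from 10.29 over 11.45 to 12.13, where 3 of 8 animals lay within the Control range or below it.

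The Tubb2b difference was 1.90 ± 0.31 at 2 days (3.73-fold, limma adjusted p = 0.000302), 1.82 ± 0.32 at 7 days (3.52-fold, limma adjusted p = 0.00207) and 1.07 ± 0.30 at 21 days (2.10-fold, limma adjusted p = 0.0138). At 60 days it was 0.64 ± 0.30 (1.56-fold, limma adjusted p = 0.135). The group means followed the order Spi-2, Spi-7, Spi-21, Spi-60 and Control, and Spi-7 minus Spi-2 was -0.08 (interval -0.68 to 0.51). The call at 21 days was lost without Control replicate 3 (limma adjusted p = 0.0528). The neighbouring and nearly identical gene Tubb2a, on a probe set of its own, differed from Control by 0.24 ± 0.11 at 2 days (limma adjusted p = 0.174). The Control mean of Tubb2a was already 13.49, where the highest value of the series was 14.37. Whether the Tubb2b probe set also reads a related tubulin could not be checked.

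**Figure D2:**
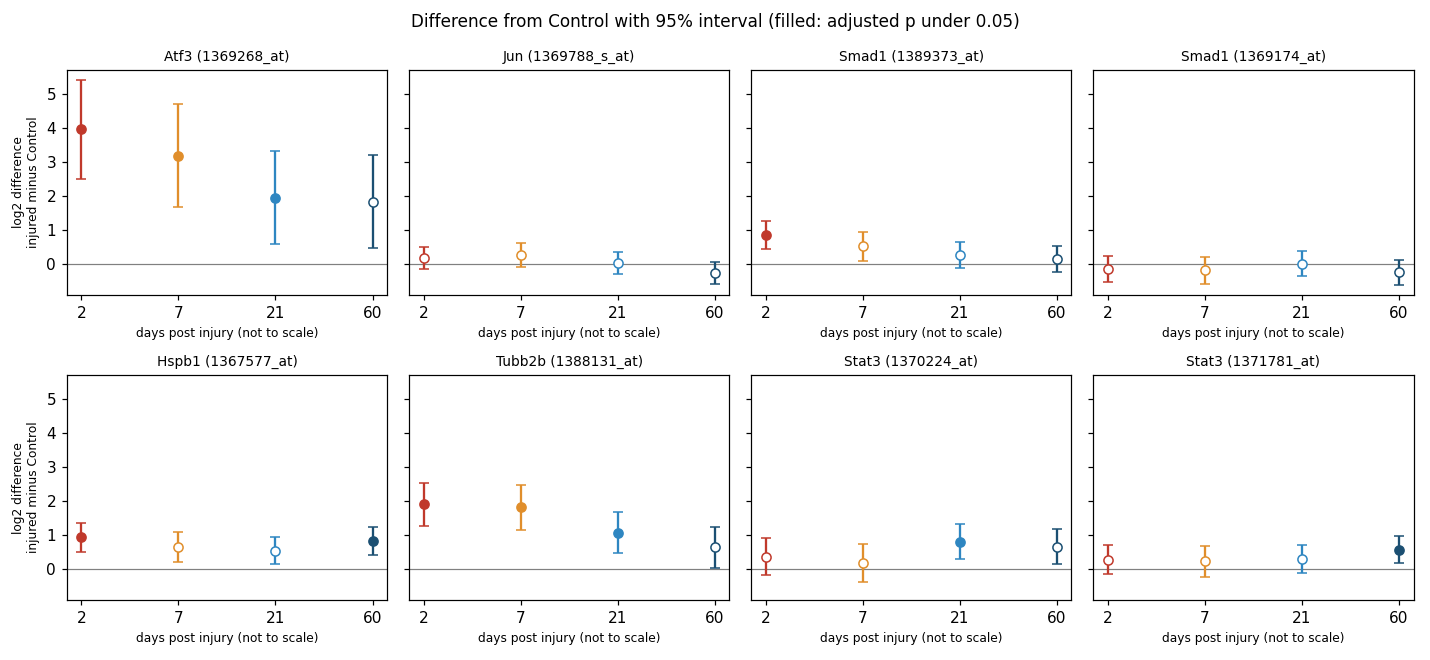
Log2 difference from Control (vertical axis, injured minus Control) of each member probe set at 2, 7, 21 and 60 days after injury (horizontal axis, not to scale), with 95% intervals and filled points for limma adjusted p under 0.05. The Atf3 and Tubb2b points lie highest at 2 days (3.95 and 1.90), whereas the Hspb1 points lie between 0.54 and 0.95 at all 4 times and those of Stat3 are filled only at 21 or 60 days.

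Over the 5 groups, the moderated F-test of limma called 4 of the 8 probe sets at an adjusted p under 0.02, against 16.2% of all probe sets. These were Tubb2b (limma adjusted p = 0.000186), Atf3 (0.0015), the brighter Smad1 probe set (0.00669) and Hspb1 (0.00817). Jun and Stat3 1370224_at missed that threshold with limma adjusted p of 0.0319 and 0.0413.

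Between the 2 early times, none of the 8 probe sets was called by limma, and none of all 12913 was (0%). At an unadjusted limma p under 0.05 there were 460 of all probe sets and 0 members, and none was called with array weights or in any other fit that was run. Between the 2 late times no member was called, against 0.0697% of all probe sets, and Jun alone had an unadjusted limma p under 0.05 (0.0291), with a difference of -0.29 ± 0.13.

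Late values set against early ones cross the 2 studies. Spi-60 minus Spi-2 was -2.12 ± 0.59 for Atf3 (limma adjusted p = 0.0203), -1.26 ± 0.26 for Tubb2b (limma adjusted p = 0.00289), -0.70 ± 0.17 for the brighter Smad1 probe set (limma adjusted p = 0.00711) and -0.44 ± 0.14 for Jun (limma adjusted p = 0.0321). These 4 of 8 were all lower, and of all probe sets 11% were called and 5.74% were lower. Spi-21 minus Spi-2 was -2 ± 0.59 for Atf3 (limma adjusted p = 0.024), -0.83 ± 0.26 for Tubb2b (limma adjusted p = 0.0325) and -0.57 ± 0.17 for Smad1 (limma adjusted p = 0.0222), where 14.6% of all probe sets were called and 8.04% were lower. Spi-60 minus Spi-7 was called for Tubb2b (-1.17 ± 0.28, limma adjusted p = 0.0141) and Jun (-0.53 ± 0.14, limma adjusted p = 0.0305), where 4.27% of all were called and 1.69% were lower, and Spi-21 minus Spi-7 for no member (4.29% of all). Hspb1 differed by -0.11 ± 0.17 between Spi-60 and Spi-2 (interval -0.47 to 0.24). Stat3 was higher late on 1370224_at, by 0.44 ± 0.22 in Spi-21 and 0.29 ± 0.22 in Spi-60 relative to Spi-2, without a call (limma adjusted p of 0.17 and 0.408). The comparisons of this paragraph share the Spi-2, Spi-7, Spi-21 and Spi-60 animals with one another. The calls for Tubb2b and Smad1 between Spi-60 and Spi-2 held without any single animal. Both Atf3 calls were lost without Spi-2 replicate 1 or 5 (limma adjusted p between 0.0505 and 0.0714), and that of Smad1 at 21 days without Spi-2 replicate 1, 4 or 5 (0.0501 to 0.0518). The Tubb2b call was lost at 21 days without Spi-2 replicate 1, 4 or 5 or Spi-21 replicate 1, 7 or 8 (limma adjusted p between 0.0554 and 0.0772), and between Spi-60 and Spi-7 without Spi-7 replicate 1 or 2 (0.0558 and 0.0566). Both Jun calls were lost without Spi-60 replicate 1, 2 or 5, and also without Spi-2 replicate 1, 4 or 5 in the first and Spi-7 replicate 1, 2 or 3 in the second (limma adjusted p between 0.0555 and 0.13).

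Over all 31 arrays, Tubb2b was also the probe set whose values followed those of Atf3 most closely of all with 1 gene symbol (Pearson's r = 0.85, Spearman's rho = 0.84). It was followed by Il33, an alarmin cytokine (r = 0.83), Mvp, the major vault protein (r = 0.83), Dazap2 (r = 0.82) and Ccl2, a chemokine that attracts monocytes (r = 0.81). After each group's mean had been subtracted, r with Atf3 was 0.69 for Tubb2b, 0.71 for Il33, 0.75 for Mvp, 0.67 for Dazap2 and 0.72 for Ccl2. Among the other members r with Atf3 was 0.71 for the brighter Smad1 probe set, 0.52 for Jun and for Hspb1, 0.08 and 0.31 for Stat3 and -0.10 for the dimmer Smad1 probe set. These are descriptions over arrays that share groups, study and normalization. Ccl2 averaged 8.82 ± 1.59 in Spi-2 (SD, n = 6), 7.85 ± 1.60 in Spi-7 (SD, n = 5) and 6.11 ± 0.15 in Control animals (SD, n = 4). Il33 averaged 7.67 ± 0.85 in Spi-2, 7.77 ± 0.65 in Spi-7 and 6.06 ± 0.42 in Control animals (SD).

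**Figure D3:**
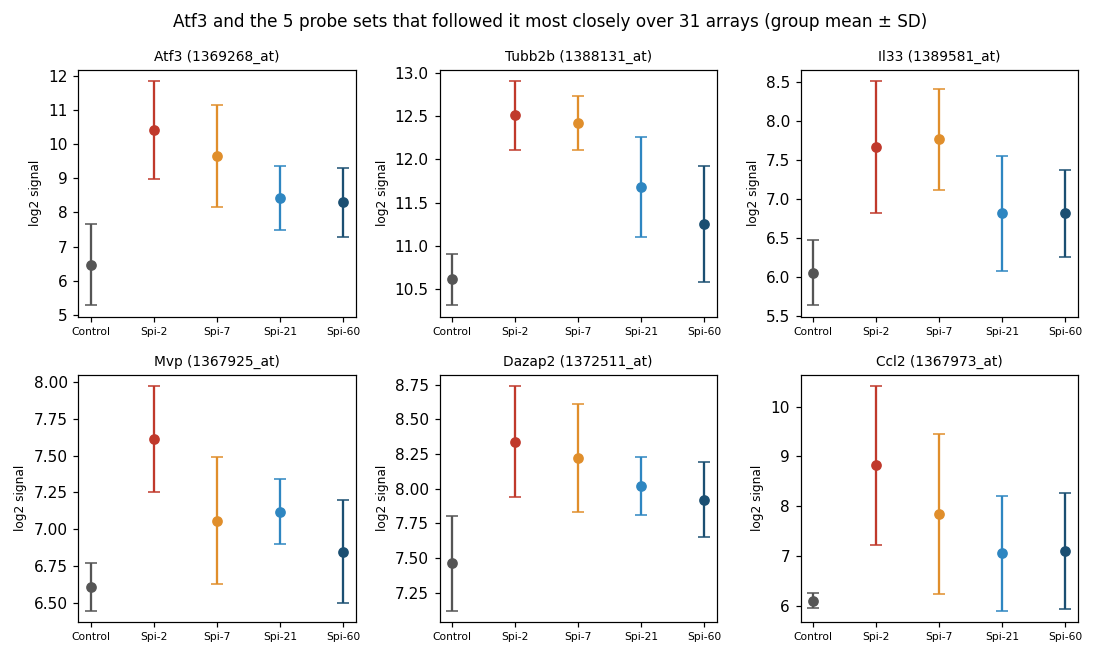
Group means with SD of the log2 signal (vertical axes, 1 for each panel) of Atf3 and the 5 probe sets most correlated with it over 31 arrays, in Control, Spi-2, Spi-7, Spi-21 and Spi-60. In all 6 panels the Control mean is the lowest, and Atf3 falls to 8.42 in Spi-21 and 8.30 in Spi-60, against 10.43 in Spi-2.

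The genes around the members were described from lists, with 1 probe set for each gene and no test of a list. Their calls were also read in 5 further fits: after a further quantile normalization, with the 3′ minus 5′ Gapdh signal of each array as a covariate (the 3′ covariate), without Spi-2 replicate 4, without Control replicate 2 and Spi-7 replicate 5 together, and without Spi-21 replicates 1 to 3. Of 17 measured genes of the growth cone and the tubulin cytoskeleton, 6 were higher and 1 lower at 2 days, with a median difference of 0.24, against 3.9% called higher and a median of 0 over all probe sets. Tubb6, another β-tubulin, was 1.45 ± 0.28 higher (limma adjusted p = 0.00114) and Dpysl4, a collapsin response mediator, 0.74 ± 0.14 (limma adjusted p = 0.000882). Both were dim in Control, with means of 4.90 and 5.90, below the array medians of 5.95 to 6.1. Marcks, a membrane-bound actin regulator, was 0.92 ± 0.27 higher (limma adjusted p = 0.0273), and Dpysl5, Crmp1 and Cap1 were 0.45 to 0.65 higher. Map1b, a microtubule protein of growing axons, was lower by -0.45 ± 0.11 (limma adjusted p = 0.0121). Dpysl4 was called at all 4 times, with differences between 0.67 and 0.78. Tubb6 was also called at 7 days (1.16 ± 0.29, limma adjusted p = 0.0239). Basp1, a relative of Gap43, was called at 21 days (0.70 ± 0.22, limma adjusted p = 0.0292) and not at 2 days (-0.10 ± 0.24), and Tubb3 and Tubb5 also joined at 21 days (0.80 ± 0.23 and 0.34 ± 0.10), where 4 of the list were higher. At 60 days 3 were higher, namely Dpysl4, Dpysl5 and Tubb5. The Marcks call at 2 days was lost without Spi-2 replicate 4 or with the 3′ covariate, and the Tubb6 call at 7 days with that covariate (limma adjusted p between 0.069 and 0.0969).

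**Figure D4:**
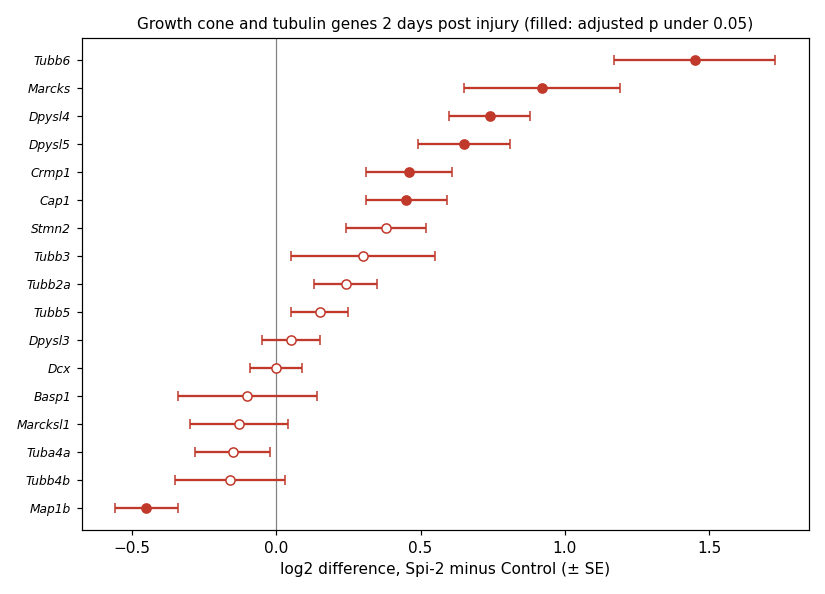
Log2 difference between Spi-2 and Control (horizontal axis, Spi-2 minus Control, with SE) of the 17 measured growth cone and tubulin genes (vertical axis), with filled points for limma adjusted p under 0.05. Tubb6 lies farthest to the right at 1.45 and Map1b farthest to the left at -0.45.

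Of 28 measured further genes that are commonly listed as regeneration-associated, 2 were higher at 2 days, 1 at 7 days, 4 at 21 days and 5 at 60 days, and none was lower. The shares of all probe sets called higher were 3.9%, 0.914%, 5.94% and 7.2% at these times. S100a10, a calcium-binding partner of annexin A2, was called at all 4 times, with differences of 0.63 ± 0.12, 0.50 ± 0.12, 0.33 ± 0.11 and 0.35 ± 0.11. The other gene called at 2 days was Myc, a transcription factor (0.59 ± 0.17, limma adjusted p = 0.029), whose call was lost without Spi-2 replicate 4 or with the 3′ covariate (limma adjusted p of 0.0764 and 0.139). Myc was dim, with group means of 5.27 to 5.96, near or below the array medians of 5.95 to 6.1. Lgals1, a galectin, Tnfrsf12a, the receptor of the cytokine TWEAK, and Anxa2 were higher at 21 days by 0.77 ± 0.22, 1.18 ± 0.35 and 0.66 ± 0.21 and at 60 days by 0.84 ± 0.22, 1.00 ± 0.35 and 0.78 ± 0.21, and Itga7, an integrin, was higher at 60 days by 0.64 ± 0.20. Classical markers of axotomised neurons did not pass the test at 2 days: Sprr1a differed by 1.02 ± 0.50 (limma adjusted p = 0.214), the neuropeptide Vip by 1.75 ± 0.75 (0.151) and galanin (Gal) by 0.54 ± 0.44 (0.511).

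Among 9 measured partners of Atf3 and Jun, Fosl1, an AP-1 protein of the Fos family, was higher at 2 days (0.74 ± 0.23, limma adjusted p = 0.0415), 21 days (0.80 ± 0.22, adjusted p = 0.0141) and 60 days (0.98 ± 0.22, adjusted p = 0.00303). Fosl1 was dim in Control, with a mean of 5.88, below the array medians of 5.95 to 6.1. Atf4, a factor of the stress response, was lower at 2 days (-0.55 ± 0.17, limma adjusted p = 0.0366), and Ddit3, its target CHOP, was lower at 60 days (-0.83 ± 0.19, adjusted p = 0.00357). The Fosl1 call at 2 days was lost in 4 of the 5 further fits, all but that without Spi-21 replicates 1 to 3 (limma adjusted p between 0.0589 and 0.0901). With the 3′ covariate the calls of Atf4 at 2 days and of Fosl1 and Ddit3 at 60 days were lost (limma adjusted p of 0.0536, 0.0516 and 0.182), and that of Atf4 also without Control replicate 2 and Spi-7 replicate 5 (0.0623). Of 4 measured genes of the JNK pathway, the scaffold Mapk8ip1 was higher at 60 days (0.59 ± 0.15, limma adjusted p = 0.00842), but not with the 3′ covariate (0.48, adjusted p = 0.193). At 21 days Mapk8ip1 was called after quantile normalization (0.54, limma adjusted p = 0.0391) and the kinase Mapk9 without Spi-21 replicates 1 to 3 (0.41, adjusted p = 0.0472).

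Around Smad1, none of 17 measured genes of BMP signalling was higher at any time. The receptor Bmpr2 was lower at 2 days (-0.62 ± 0.19, limma adjusted p = 0.0374), 21 days (-0.57 ± 0.18, adjusted p = 0.0296) and 60 days (-0.78 ± 0.18, adjusted p = 0.00399). The BMP inhibitor noggin (Nog) was lower at 21 and 60 days by -0.96 ± 0.29 and -0.94 ± 0.29. The Bmpr2 call at 2 days was lost after quantile normalization, without Spi-2 replicate 4 and without Control replicate 2 and Spi-7 replicate 5 (limma adjusted p between 0.0519 and 0.0873), and that at 21 days after quantile normalization (0.111). The Nog calls were lost at both times without Control replicate 2 and Spi-7 replicate 5, at 21 days without Spi-21 replicates 1 to 3 and at 60 days with the 3′ covariate (limma adjusted p between 0.0928 and 0.313). The target genes Id1, Id2 and Id3 differed from Control by between -0.28 and 0.27 at the 4 times. Their signals were dim, with group means of 4.71 to 6.09. In this list only Bmpr2, Nog and Smurf1 had a group mean above the array medians of 5.95 to 6.1.

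Around Stat3, 2 of 16 measured genes of gp130 signalling were higher at 2 days: the receptor Il6r (0.56 ± 0.15, limma adjusted p = 0.0207) and the kinase Jak1 (0.44 ± 0.12, adjusted p = 0.0223), where 3.9% of all probe sets were. Jak1 was also higher at 7 days (0.47 ± 0.13, limma adjusted p = 0.045). Socs3, the feedback inhibitor of this pathway, was higher at 21 days (0.37 ± 0.11, limma adjusted p = 0.02), and Stat5a at 60 days (0.32 ± 0.09, adjusted p = 0.0171). The signals of Il6r, Jak1 and Socs3 were dim, with group means of 5.19 to 5.96, near or below the array medians of 5.95 to 6.1. With the 3′ covariate the calls of Il6r at 2 days, Jak1 at 7 days and Stat5a at 60 days were lost (limma adjusted p of 0.0504, 0.0808 and 0.0627), and that of Jak1 at 7 days also after quantile normalization (0.0641). The Socs3 call was lost without Control replicate 2 and Spi-7 replicate 5 and without Spi-21 replicates 1 to 3 (limma adjusted p of 0.0823 and 0.158). Around Hspb1, none of 8 measured genes of small heat shock proteins and their regulator Hsf1 was higher at any time, and Hspb6 was lower at 21 and 60 days by -0.71 ± 0.23 and -0.70 ± 0.23. Both Hspb6 calls were lost after quantile normalization and without Control replicate 2 and Spi-7 replicate 5, that at 21 days also without Spi-21 replicates 1 to 3 and that at 60 days with the 3′ covariate (limma adjusted p between 0.0665 and 0.148).

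Markers of motor neurons were bright on average, and those of other cell types varied between animals. The mean of 8 motor neuron markers lay between 10.65 and 11.34 in every animal of all 5 groups. Not every marker was bright: group means were 13.17 to 14.2 for the neurofilaments Nefl, Nefm and Nefh, but 6.88 to 7.92 for Slc18a3. Isl1 had 5.64 to 5.77, below the array medians of 5.95 to 6.1. Within this list Slc5a7, the choline transporter, was lower at 2, 21 and 60 days (-1.18, -1.11 and -1.06), and Prph, the neurofilament protein peripherin, was higher at all 4 times by 0.59 to 0.79. Both calls at 2 days were lost with the 3′ covariate, and that of Prph also in 3 of the other 4 fits (limma adjusted p between 0.0534 and 0.134). The mean of 9 microglia markers was 6.31 to 7.15 in Spi-2, 5.89 to 6.88 in Spi-7, 5.50 to 7.12 in Spi-21, 5.85 to 7.20 in Spi-60 and 5.52 to 5.78 in Control animals, and 4 of the 9 were higher at 2 days (Aif1, C1qc, Csf1r and Cd68). Of 6 measured astrocyte markers Gfap alone was called at 2 days, higher by 2.45 ± 0.42, and the median difference of the list was -0.27. Of 6 oligodendrocyte markers the myelin gene Mbp alone was called at 2 days, lower by -2.14 ± 0.31, with a list median of -0.32. Later, Mbp was lower at 7 and 21 days (-1.66 and -1.28), Mog at 21 and 60 days (-0.96 and -0.74) and Olig1 at 21 days (-0.96). Gfap was higher at 21 and 60 days (1.34 and 1.83) and Slc1a3 lower at 21 days (-0.94). Microglia markers called higher numbered 1, 2 and 3 at 7, 21 and 60 days, against 0.914%, 5.94% and 7.2% of all probe sets. With the 3′ covariate no marker of these glial lists was called at 60 days. In Spi-7, Spi-21 and Spi-60 the animal with the highest microglia mean also had the highest Atf3 value, but not in Spi-2 or Control. These microglia means were 6.88, 7.12 and 7.20, and the Atf3 values 11.54, 9.85 and 10.23. The part of glial cells in the member values was not tested, and fewer cells of a type and less RNA per cell cannot be told apart in such samples. Spi-2 replicate 4 stood out by its fibroblast markers (10.3, against 5.20 to 5.84 in the other Spi-2 animals). It also stood out by markers of neutrophils (8.32, against 4.85 to 5.59) and endothelium (7.57, against 5.79 to 6.08). Without this animal the 4 calls at 2 days held, with differences of 4.08 for Atf3, 1.88 for Tubb2b, 0.91 for Hspb1 and 0.83 for Smad1.

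**Figure D5:**
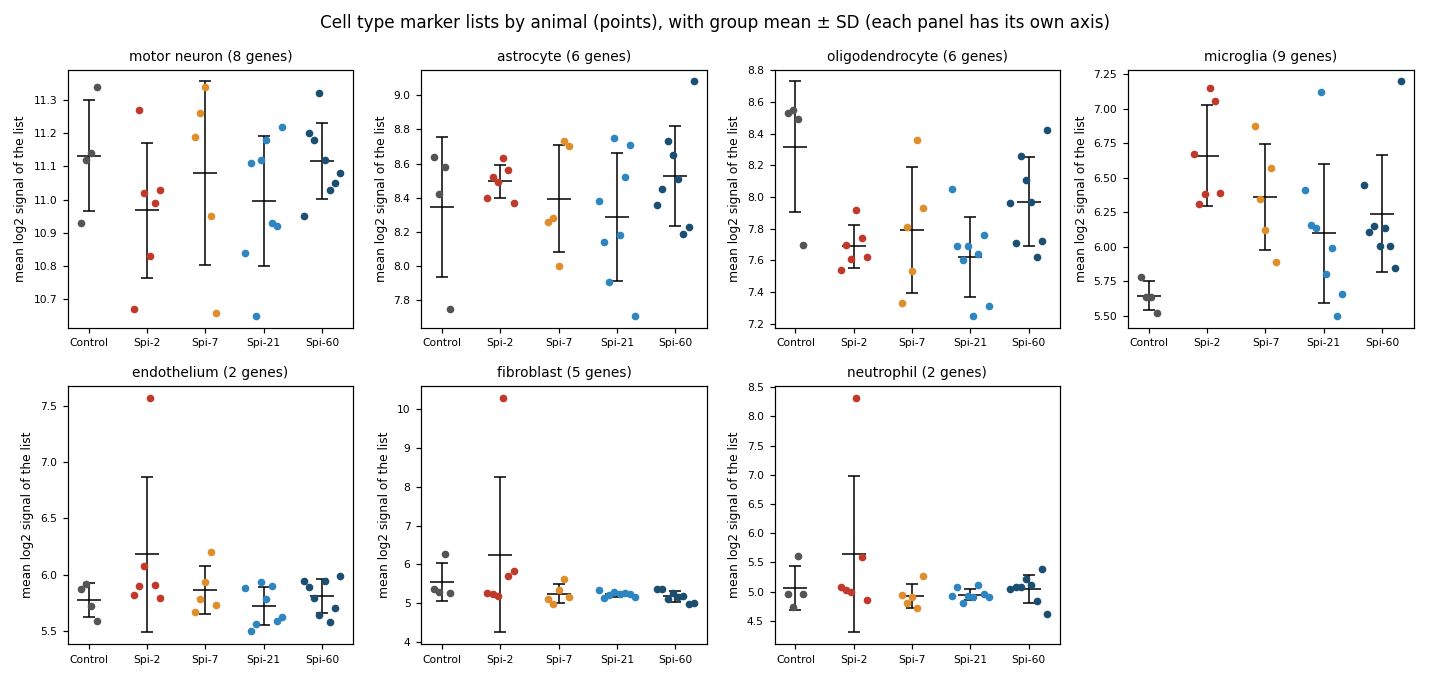
Mean log2 signal of 7 lists of cell type markers (vertical axes, 1 for each panel) in every animal (points) of Control, Spi-2, Spi-7, Spi-21 and Spi-60, with group mean and SD (bars). Microglia markers lie above all Control animals in all Spi-2 animals (6.31 to 7.15, against 5.52 to 5.78), and 1 Spi-2 animal has a fibroblast value of 10.3.

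The Gapdh 3′ minus 5′ signal also moved with the groups, where RNA length and amplification cannot be told apart. The Gapdh probe set at the 3′ end exceeded that at the 5′ end by 2.82 ± 0.36 in Spi-2, 3.01 ± 0.37 in Spi-7, 2.29 ± 0.94 in Spi-21, 3.49 ± 0.35 in Spi-60 and 2.01 ± 0.33 in Control animals (log2, mean ± SD), and Spi-60 did not overlap with Control (2.99 to 3.97, against 1.80 to 2.50). With the 3′ covariate, Atf3 at 7 days was 3.02 (limma adjusted p = 0.061) and at 21 days 1.90 (0.058), Hspb1 at 60 days was 0.47 (0.302) and Stat3 1371781_at at 60 days was 0.13 (0.83), so that these 4 calls were lost, whereas the 4 calls at 2 days and those of Tubb2b at 7 and 21 days held. At 60 days, where the covariate did not overlap between the groups, this fit could hardly tell injury from the Gapdh signal. Calls over all probe sets fell there from 2207 to 267. In the same fit 2 growth cone and tubulin genes were called higher at 2 days in place of 6, and none of the further regeneration-associated genes at 60 days in place of 5. Array quality differed in other ways too: Spi-7 replicate 5 had the narrowest spread of its group and the lowest value of its group for Atf3, Jun, the brighter Smad1 probe set, Hspb1, Tubb2b and Stat3 1371781_at. Spi-21 replicates 1, 2 and 3 had the narrowest spreads of all groups but for 1 array (interquartile ranges of 1.74 to 1.79), and without these 3 arrays the 3 calls at 21 days were lost, at 1.75 for Atf3 (limma adjusted p = 0.166), 0.87 for Tubb2b (0.0929) and 0.69 for Stat3 1370224_at (0.125). The same fit left 1 of 4 growth cone and tubulin genes and none of 4 further regeneration-associated genes called at 21 days. The Gapdh 3′ minus 5′ signal split Spi-21: 2.76 to 3.54 in replicates 1 to 4, against 1.13 to 1.66 in replicates 5 to 8. Between these 2 sets Hspb1 (12.70 to 12.92 against 12.19 to 12.44) and Stat3 1371781_at (6.47 to 7.05 against 6.07 to 6.39) did not overlap. The other member probe sets overlapped. The fit without replicates 1 to 3 kept replicate 4, and the cause of this split was not tested.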

How the data were processed

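RNA of laser-dissected motor neurons was hybridised to 31 Affymetrix arrays, 1 per animal, and groups were taken from the sample labels. The authors deposited log2 values: they removed probe sets outside the Ensembl annotation of the chip, corrected the background, quantile normalized, summarised by RMA (named in the submitters' processing notes with no version) and normalized the summaries again. The summaries also had a further background correction. This left 12919 probe sets, and array medians between 5.95 and 6.1 can hide a shift of all genes. Scanner files were not used here. After 6 control sets had been left out, 12913 probe sets were tested, of which 11880 had 1 symbol, 320 several and 713 none in the platform annotation.

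Group means were estimated by limma 3.58.1 in R 4.3.3 (lmFit, contrasts.fit, eBayes, two-sided, no covariate), with Benjamini-Hochberg adjustment over all probe sets, contrasts called under 0.05 and the F-test under 0.02. Replicates are separate animals. The number of arrays limits the precision: on simulated data with 12913 probe sets, a log2 change of 0.5 was found in 42% (day 2), 32% (day 7), 40% (day 21) and 38% (day 60) of changed probe sets, a change of 1 in 92%, 86%, 94% and 90%, and a change of 2 in 100%. These shares are for randomly chosen probe sets with independent noise, and not for the members. Only 50 probe sets were changed for each size of change (0.5, 1, 2 and 4), alike at all 4 times. This is a smaller share of all probe sets than was called in the data at any of these times (2.59% to 17.1%). Adjusted p depends on that share, so the shares found do not give the power in the data. A probe set with a wide spread can be missed: Atf3 at 60 days was 1.83 ± 0.67 and was not called. Where replicate numbers recur between groups, 10 of 51 same-numbered pairs deviated together (r over 0.1), so numbers were not taken as pairs.

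All member probe sets are named. From each pathway list, the 3 genes with the smallest F-test p among those called at any time were to be named, and further genes were named after their values had been seen where a count was small. Each gene of a list is represented by its brightest probe set. Likeness to Atf3 is the correlation over 31 arrays, with the 5 closest probe sets named. The members, lists and tests were chosen with earlier results of these data known. Alternatives were a further quantile normalization, a floor on the mean of 5, array weights, a variance trend, the Gapdh 3′ covariate, the replicate block, Benjamini-Yekutieli adjustment, only the groups compared, and leaving out arrays. The comparisons of late with early days, the fit without Control replicate 2 and Spi-7 replicate 5, the further fits of the list genes and the promoter search were added after the data had been seen. Promoters were searched and figures drawn with Python 3.11.15 and matplotlib 3.10.9.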

Additional observations from a re-analysis of the deposited data

Results flagged for a closer look

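In 5 of 40 combinations of a member probe set and a group, 1 animal stood apart from the rest by Dixon's criterion, which chance meets in about 1 of 20 groups. Hspb1 was 12.14 in Spi-2 replicate 1, where the next animal had 12.92. Stat3 1370224_at was 6.53 in Control replicate 3, where the next had 6.95, and 6.27 in Spi-21 replicate 7, where the next had 7.48. The dimmer Smad1 probe set (1369174_at) was 5.02 in Spi-2 replicate 3, where the next had 5.36, and 6.44 in Spi-21 replicate 1, where the next had 5.66.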

How the results depend on the processing

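The 4 member calls at 2 days held under every alternative run but Benjamini-Yekutieli adjustment, which left 3 (without Smad1, adjusted p = 0.0689), and without any single animal. At 7 days the count of 2 became 5 with array weights and 1 with the Gapdh 3′ covariate or Benjamini-Yekutieli adjustment, and ran from 1 to 3 without single animals. At 21 days the count of 3 became 0 without Spi-21 replicates 1 to 3 or with Benjamini-Yekutieli adjustment, and ran from 0 to 4 without single animals. At 60 days the count of 2 became 4 with further quantile normalization, array weights or only the groups compared, 0 with the 3′ covariate and 1 with Benjamini-Yekutieli adjustment, and ran from 1 to 4 without single animals. The F-test count of 4 became 7 with array weights and 2 with Benjamini-Yekutieli adjustment. It was 2 in the arrays of the present study alone, which is another test, over Control, Spi-2 and Spi-7 without the late groups. The causes were not tested. Values that changed sign were all uncalled. At 7 days Stat3 1370224_at and 1371781_at were -0.01 and -0.07 with the 3′ covariate. At 21 days Jun was -0.04 with the replicate block and between -0.06 and 0.08 without single animals, and Smad1 1369174_at was 0.00 with quantile normalization, -0.01 with array weights or the 3′ covariate, -0.13 without Spi-21 replicates 1 to 3 and between -0.11 and 0.09 without single animals. At 60 days Smad1 1389373_at lay between -0.02 and 0.26 without single animals. Spi-7 minus Spi-2 was 0.07 with array weights for Tubb2b and for Stat3 1371781_at, and 0.02 and 0.11 without Control replicate 2 and Spi-7 replicate 5. Spi-60 minus Spi-21 was 0.08 for Atf3 without Spi-21 replicates 1 to 3, and with the 3′ covariate 0.13 for Smad1 1389373_at, 0.00 for Hspb1 and -0.10 for Stat3 1371781_at. With the replicate block, Atf3 at 2 days was 4.05 (limma adjusted p = 0.00274), Hspb1 at 21 days was called (0.65, adjusted p = 0.0367) and Atf3 at 21 days was not (1.93, adjusted p = 0.0854).

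Over all probe sets, the count at 2 days was 1146, 2275 with array weights and 297 with Benjamini-Yekutieli adjustment. At 7 days it was 334, 1530 with array weights, 48 with Benjamini-Yekutieli adjustment, 190 with the 3′ covariate, 524 with only the groups compared and 214 without Control replicate 2 and Spi-7 replicate 5. At 21 days it was 2148, 480 with Benjamini-Yekutieli, 680 without Spi-21 replicates 1 to 3 and 1364 with only the groups compared. At 60 days it was 2207, 641 with Benjamini-Yekutieli and 267 with the 3′ covariate. Between Spi-60 and Spi-21 the count of 9 ran from 0 to 246, and the F-test count of 2098 was 4181 with array weights and 553 with Benjamini-Yekutieli. The F-test over Control, Spi-2 and Spi-7 alone, a different test, called 389. Without single animals the counts ran from 675 to 1389 at 2 days, 147 to 348 at 7 days, 1197 to 2415 at 21 days and 1420 to 2261 at 60 days, with the lowest value without Control replicate 2 or 3. Among the lists, further quantile normalization gave 8 growth cone and tubulin genes higher at 21 days and 5 at 60 days, called 7 higher and none lower at 2 days, and gave 4 genes of gp130 signalling higher at 2 days in place of 2, of which the 3′ covariate left 1. The 3′ covariate left 1 growth cone and tubulin gene at 60 days and 1 microglia marker at 2 days. Without Control replicate 2 and Spi-7 replicate 5, a choice made after seeing the data, 2 further regeneration-associated genes were higher at 21 days and 3 at 60 days.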
